A study of Mus musculus with 12 samples.

Results

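The broad H3K27ac regions described here are the 178 regions of 2000 bp or more in the consensus list of wild-type control forelimb buds, out of 19957 regions on chromosomes 1 to 19 and X. They were chosen by their measured length alone, so their length in this list and their number are a description and were not tested. Acetylation of lysine 27 on histone H3 is laid down by the acetyltransferases p300 and CBP, and it marks the nucleosomes that flank active promoters and enhancers. Most such regions cover a few nucleosomes, and long stretches of the mark are known from genes that control cell identity and from very active promoters. β-catenin is the nuclear effector of canonical WNT signalling, and it has no DNA-binding domain of its own but is recruited to cis-regulatory modules by TCF and LEF proteins. In the limb bud, WNT ligands from the ectoderm act on the mesenchyme, and the porcupine inhibitor C59 blocks the secretion of all WNT ligands.

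Swiss Albino wild-type embryos were exposed at E10.5 either to C59 or to DMSO (the wild-type control) through injection of the pregnant females, and forelimb buds were collected 6 h later. ChIP-seq against H3K27ac and against β-catenin was done with 2 replicates per antibody and treatment, each from pooled whole buds. Genotype and stage were the same in all groups. By the methods of the study, C59 was injected in a solution with methylcellulose and Tween-20 and the controls received DMSO in PBS, so an effect of these additives cannot be told apart from that of C59. Each consensus list was called by the authors on both replicates together, and it has no error of its own. A library's depth follows from the background coverage that its peak caller expected. This came to 5.03 and 5.39 Gb of fragments for H3K27ac in DMSO, 5.93 and 5.56 Gb in C59, and for β-catenin to 2.93 and 3.39 Gb in DMSO and 3.42 and 3.40 Gb in C59. Whole buds hold several cell types, and a weaker mark in all cells cannot be told apart from fewer cells that carry it. Of the marker genes of limb mesenchyme, 2 of 6 had a transcription start site (TSS) inside an H3K27ac region, against 0 of 6 for ectoderm, 0 of 5 for endothelium, 0 of 6 for blood, 1 of 5 for muscle precursors and 1 of 4 for neural crest. The mesenchymal markers Prrx1, Tbx5, Twist1 and Msx1 had no TSS in a region, although members lie near the TSSs of Prrx1 and Tbx5.

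The sequences shown first come from β-catenin summits inside broad regions and were chosen by fold enrichment and a motif match. They surround the core of the TCF/LEF motif, ATCAAAG or TTCAAAG on either strand, at 6 of the 7 strongest wild-type β-catenin summits with a core inside broad regions, 1 for each region and outside UTRs. The other one, of 10.6-fold in Fhod3, is not shown. Each is read 5′ to 3′ from the mm10 genome of RefSeq, on the strand that carries the core nearest to the summit, with every core in capitals. The Twist2 window lies on the plus strand at chr1:91800336-91800442 in an exon of the noncoding gene Gm29100, and its summit had a fold enrichment of 15.0. The intergenic window at chr9:41950543-41950649 is on the plus strand, with a summit of 13.0-fold, and Sorl1 has the nearest TSS of a protein-coding gene. The Axin2 window is on the minus strand at chr11:108921202-108921308 in an intron (11.6-fold), and the Auts2 window is on the minus strand at chr5:132542239-132542345 in an exon (10.6-fold). The last windows are on the plus strand, for Elk3 at chr10:93309723-93309829 in an intron (8.23-fold) and for Dnm3 at chr1:162017166-162017272 in an exon (8.201-fold). The core lay 5, 23, 3, 2, 86 and 39 bp from the summit in these windows, in the order given.
Twist2: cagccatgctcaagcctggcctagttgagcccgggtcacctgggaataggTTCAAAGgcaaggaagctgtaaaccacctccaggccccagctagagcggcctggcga
Sorl1: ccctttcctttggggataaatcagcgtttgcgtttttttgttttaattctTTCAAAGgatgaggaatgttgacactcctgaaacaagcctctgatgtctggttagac
Axin2: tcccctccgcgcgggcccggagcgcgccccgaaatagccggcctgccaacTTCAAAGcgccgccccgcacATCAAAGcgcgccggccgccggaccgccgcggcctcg
Auts2: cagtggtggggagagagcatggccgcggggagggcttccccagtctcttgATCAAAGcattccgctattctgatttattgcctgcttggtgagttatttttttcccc
Elk3: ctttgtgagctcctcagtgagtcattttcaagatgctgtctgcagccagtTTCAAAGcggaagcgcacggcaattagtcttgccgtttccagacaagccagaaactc
Dnm3: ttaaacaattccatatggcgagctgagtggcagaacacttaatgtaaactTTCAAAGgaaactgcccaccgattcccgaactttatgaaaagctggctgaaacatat
Of these 6 windows, that of Axin2 alone holds 2 cores, and its summit alone lay in a β-catenin peak called after C59. Axin2 encodes a scaffold of the β-catenin destruction complex and is a general feedback target of the pathway.

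The median length of all 19957 regions was 765 bp, and 0.892% reached 2000 bp. The broad regions took 2.48% of the bases of the list. Their median length was 2204 bp, and the longest measured 3617 bp. A broad region held a median of 5 H3K27ac summits, against 1 for shorter regions, and its highest summit reached a median fold enrichment of 6.42, against 7.18 in the shorter ones. The members nearest to the limit were Pitpnc1 and Tnfaip6 with 2000 bp each, Elk3 with 2003 bp, Cecr2 with 2004 bp and a region 37273 bp from the Ddx3x TSS with 2005 bp. Just under it were Foxp1 with 1999 bp, a region near Fzd1 with 1997 bp, Cdc14a with 1996 bp, a region near Stx18 with 1992 bp and an intragenic region of Ptk7 with 1990 bp. The count differed between kinds of list. Those of single replicates held 96 and 91 regions of this length in DMSO and 100 and 87 in C59. The C59 consensus list held 171. Consensus lists pool the reads of both replicates but were also filtered in another way, and the cause of the difference was not tested. Of the 178 members, 72 reached 2000 bp in both DMSO replicates, 41 in 1 of them and 65 in neither.

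**Figure D1:**
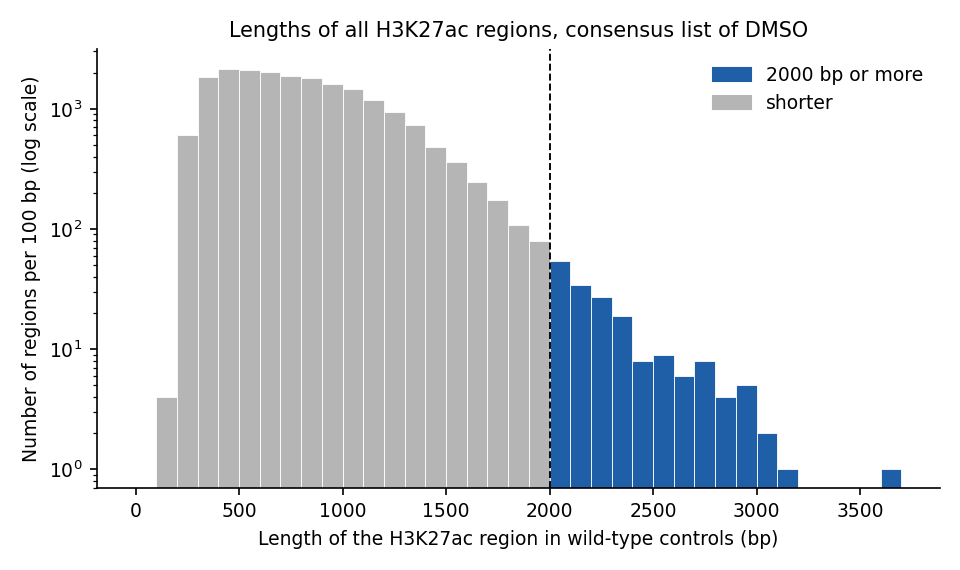
Number of H3K27ac regions of the wild-type consensus list per 100 bp of length (log scale), with regions of 2000 bp or more in blue and the limit as a dashed line. There is no gap at the limit, and beyond it the regions reach 3162 bp, with a single further one of 3617 bp.

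Most broad regions were promoters. A TSS of any GENCODE transcript lay inside 142 of 178 (79.8%, 95% Wilson interval 73.3 to 85.02%), and the share over all regions was 52.8%. Intervals of shares cover counting error over regions only, since regions are not replicates. The TSS share was also larger with length among shorter regions, from 20.9% under 500 bp to 75.9% (73.1 to 78.5%) from 1500 bp up to the limit, so most of this gradient lay below the limit. Of the 178, 132 held the TSS of a protein-coding gene and 10 that of a noncoding gene alone. Of those without a TSS, 19 overlapped a coding gene at least in part, and 17, called intergenic here, overlapped none. In the 119 broad regions with TSSs of a single coding gene, the mark reached a median of 683 bp upstream and 1573 bp downstream of the outermost TSS. It reached farther downstream than upstream in 74.8% of them (66.3 to 81.7%), a share that was 80.4% (77.0 to 83.5%) for regions from 1500 bp up to the limit and 86.0% (85.3 to 86.7%) for all shorter regions. The median GC content of broad regions was 60.4%, against 57.2% in shorter ones, and the observed-over-expected ratio of CpG was 0.719 against 0.610. Broad regions without a TSS had 53.2% and 0.328, close to the 52.0% and 0.312 of shorter regions without one.

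The longest member (chr17:39843113-39846729, 3617 bp) held the TSS of the noncoding gene Gm26917, and the ninth (chr9:3000027-3002992, 2966 bp) that of Gm10722. Both stand apart from the rest. β-catenin peaks of both C59 replicates covered at least 50% of their bases, each held 9 β-catenin summits in the DMSO consensus list, and they held 12 and 9 in that of C59. Soft-masked repeats made up 97.1% of the Gm10722 region and 5.36% of the Gm26917 region. The median share in broad regions was 11.1%, so the share of Gm26917 was not high. These 2 regions were set apart by the cover with C59 β-catenin peaks, and the name repeat regions is only a label here. Results on β-catenin are given with and without them, a choice made after the data were seen.

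The other 8 of the 10 longest regions lay at genes of different kinds. Arrdc3, an arrestin-domain protein, had 3162 bp at its TSS (chr13:80883513-80886674), which measured 3137 and 3132 bp in the DMSO replicates and 3185 and 3209 bp in those of C59. The region at the noncoding gene 2810410L24Rik (chr11:120186817-120189915) had 3099 bp, with 3071 and 3074 bp in DMSO and 2464 and 2429 bp in C59 (2464 and 2776 bp with all pieces), so that the treatments did not overlap. Ptch1, the receptor of Hedgehog ligands and itself a target of the pathway, followed with 3068 bp at chr13:63563131-63566198. Spaca6 had 2998 bp, just upstream of the genes of the microRNAs miR-99b, let-7e and miR-125a, the nearest of which starts 973 bp from the region. Arid1b, a subunit of the SWI/SNF chromatin remodelling complex, had 2992 bp, Brd2, a reader of acetylated histones, 2975 bp, and Hmga2, an architectural chromatin protein of embryonic growth, 2970 bp. A region of 2872 bp at chr9:41579885-41582756 contains the microRNA gene Mir125b-1. Of these 8, all but Arid1b and Brd2 held a β-catenin summit of the DMSO consensus list, and in DMSO replicate 2 alone Arid1b had 2 summits and Brd2 had 1.

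Several members were neighbours. Members lay at most 100 kb apart in 7 groups, which held 15 of them. They included 3 regions at and near Ddx3x, an X-linked RNA helicase, with 7 β-catenin summits in all, and pairs at Dnm3, Ier2 and Ppp1r10 with Gnl1. A further 2 pairs belonged to the Hist1 cluster of replication-dependent histone genes on chromosome 13. In all, 6 members lay at Hist1 genes, from Hist1h2ai with Hist1h2bl and Hist1h3h (2862 bp) to Hist1h3e (2079 bp). These genes have near-identical copies, so reads may have been assigned to the wrong copy or lost.

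Among the gene lists, the Hedgehog pathway had 3 of its 12 genes with a TSS in a broad region, out of 10 with a TSS in any H3K27ac region, where the share over all coding genes with a marked TSS was 1.41%. These were Ptch1, Gli3, the transcription factor that acts as a repressor in the absence of ligand, with 2212 bp (chr13:15462652-15464863), and Gas1, a co-receptor, with 2039 bp (chr13:60175412-60177450). Gli2, with 1897 bp, and Gli1, with 1798 bp, fell just short. Of the list of WNT signal transducers and TCF/LEF factors, 2 of 16 marked genes were members. These were Lef1 with 2145 bp (chr3:131110251-131112395) and Tcf7l2 with 2040 bp (chr19:55742295-55744334), both DNA-binding partners of β-catenin. Axin2 (chr11:108920399-108922415, 2017 bp) was the only 1 of 11 marked genes in the list of WNT feedback genes and antagonists, which includes secreted antagonists such as Sfrp1 and Sfrp2. Frzb, a secreted WNT antagonist outside the lists and singled out after its values were seen, had 2325 bp (chr2:80446279-80448603). None of the 5 marked WNT ligands and R-spondins, 10 marked WNT receptors, 15 marked BMP genes, 12 marked FGF genes or 7 marked chondrogenic genes had a TSS in a broad region, which at a background of 1.41% is no result about these lists. The longest at a WNT ligand was that of Wnt5a with 1794 bp.

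Of the transcription factors of limb patterning, 3 of 21 marked genes were members: Meis2, a proximal limb factor (2127 bp), Sall3, a zinc finger factor (2030 bp), and Twist2, a bHLH factor of the mesenchyme (2013 bp). Further members lay beside the TSS of such factors without holding it. They included regions 144 bp from the Lmx1b TSS (2466 bp) and 132 bp from the Prrx1 TSS (2394 bp), both inside those genes, and an intergenic region 26877 bp from the Tbx5 TSS (2528 bp). Lmx1b specifies dorsal fate, Prrx1 marks limb mesenchyme and Tbx5 initiates the forelimb. Noncoding TSSs near Hand2 and Irx3 also lay in members, with 2242 and 2006 bp. Of the 11 marked Hox genes, Hoxa10 alone was a member (chr6:52231960-52234731, 2772 bp). The endothelial and blood list contributed Fli1 (1 of 3 marked genes, 2440 bp) and the growth list Ccnd3, a D-type cyclin (1 of 14, 2787 bp). The ectoderm and neural lists contributed 0 of 2 and 0 of 1.

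Nearly every second broad region held β-catenin in wild-type controls. A consensus summit lay inside 86 of 178 (48.3%, 41.1 to 55.6%), where the share over all regions was 15.3%, and inside 106 and 116 in the lists of the replicates. Without the 2 repeat regions the share was 84 of 176 (47.7%, 40.5 to 55.1%). Longer regions offer more room, so the density is the fairer measure. It was 0.320 summits per kb in broad regions and 0.215 in shorter ones, a ratio of 1.49, and the replicates gave 1.39 and 1.26. Leaving out the 2 repeat regions lowered the density to 0.281 per kb and the ratio to 1.31. The density was higher in each longer class, from 0.139 under 500 bp to 0.309 from 1500 bp up to the limit, and it was no higher above the limit once the repeat regions were left out. In the 2 kb to either side of the members, 33 summits gave 0.0463 per kb.

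**Figure D2:**
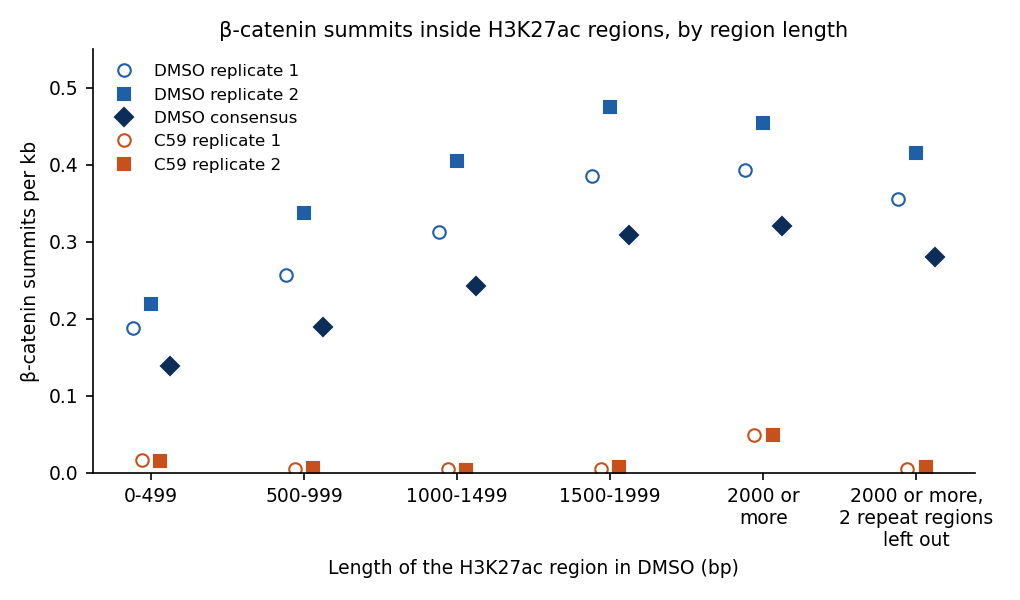
β-catenin summits per kb of H3K27ac region, by length of the region in DMSO (bp), for the DMSO consensus list (diamonds), the DMSO replicates (blue) and the C59 replicates (orange). DMSO values increase up to the class that starts at 1500 bp (0.309 in the consensus list), and C59 values stay close to 0 in all classes except that of the members with their 2 repeat regions.

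Broad regions without a TSS inside carried more β-catenin than those with one. Some of the former lay beside a TSS, such as 22 bp from that of Zfp608 and 161 bp from that of Sox4. The Zfp608 region held 2 summits and the Sox4 region 0. With TSSs within 1 kb counted too, 154 of the 178 members had one. The split therefore does not separate promoters from distal regions. Of the 36 without a TSS, 25 held a summit (69.4%, 53.1 to 82.0%). Of the 140 with a TSS that were no repeat regions, 59 did (42.1%, 34.3 to 50.4%). The densities were 0.503 and 0.226 per kb. Shorter regions had the same order at lower levels, 0.314 without and 0.151 with a TSS. Within each kind, the ratio of broad to shorter regions was therefore 1.599 without and 1.499 with a TSS, larger than the 1.31 of both kinds together, promoters being poorer in β-catenin and more frequent among broad regions. Intergenic members held a summit most often, in 15 of 17 (88.2%, 65.7 to 96.7%), and members with a coding TSS in 53 of 132 (40.2%, 32.2 to 48.7%). Members with a noncoding TSS alone, Gm26917 included, held one in 8 of 10 (80%, 49.0 to 94.3%). Those that overlapped a coding gene without a TSS held one in 10 of 19 (52.6%, 31.7 to 72.7%), an interval that covers the share with a coding TSS. In broad promoters, the 73 summits lay a median of 195 bp from the nearest TSS, and 52.1% lay within 250 bp of it. In shorter promoters, the median was 105 bp and 76.5% lay within 250 bp. A summit and a TSS inside 1 region can lie no farther apart than its length. The median lengths were 2229.5 bp in broad and 913 bp in shorter promoters, so this difference is partly fixed by the choice of regions.

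Within the broad regions, 92 members held 0 summits, 59 held 1, 21 held 2 and 4 held 3, beside the 2 repeat regions with 9 each. The 4 with 3 summits were Axin2, Trps1, a zinc finger factor (chr15:50888443-50890499), and 2 of the 3 regions at Ddx3x (chrX:13280041-13282198 at its TSS and chrX:13241693-13243697). In the replicates, Axin2 had 3 and 3 summits, Trps1 3 and 4, the Ddx3x promoter 2 and 3, and the other Ddx3x region 2 and 3. The strongest Axin2 summit is the one shown among the sequences, and the others had fold enrichments of 9.45 and 6.27. The highest summit of all broad regions belonged to Twist2, with 15.0-fold, followed by Pnpla6, a lysophospholipase, with 13.9-fold, and a region 5849 bp from the Ier2 TSS with 13.5-fold. The median fold enrichment of summits in broad regions, without the repeat regions, was 5.40 (quartiles 4.32 and 7.16), against 5.87 in shorter regions and 6.99 outside H3K27ac regions.

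The TCF/LEF core lay within 100 bp of 20 of the 131 β-catenin summits in broad regions (15.3%, 10.1 to 22.4%), and of 20 of 113 without the repeat regions (17.7%, 11.8 to 25.8%). Of the summits in shorter regions 18.9% had it (17.6 to 20.2%), and of those outside H3K27ac regions 31.4% (30.6 to 32.2%). Windows of 200 bp tiled over the regions held it in 4.59% of cases in broad and 4.79% in shorter regions, so the core was no denser in broad regions as such. All 3 summits of Axin2 had a core, while Ptch1, Hmga2 and Frzb held summits without one. A match of these letters is a description of the window and does not show that a factor was bound.

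After C59, few β-catenin summits were listed in broad regions. The replicates had 161 and 186 summits inside members in DMSO and 20 and 20 in C59, and the 2 groups were far apart. The difference of the means was 153.5 summits (two-sided exact permutation test over the 4 libraries, p = 0.33). No smaller value is possible with 2 libraries against 2, so this p does not measure how far the libraries of a treatment spread. The study calls the libraries biological replicates, each a pool of buds. Without the 2 repeat regions the counts were 143 and 167 against 2 and 3, a difference of 152.5, with the same p. These 2 regions were set apart by their cover with C59 β-catenin peaks. Low C59 values without them therefore follow in part from that choice. The background coverage of the C59 libraries was not lower than in DMSO, as the depths show. Of the 131 wild-type consensus summits, 21 (16.0%, 10.7 to 23.3%) lay in a C59 peak, and 18 of these were in the 2 repeat regions. In the other members it was 3 of 113 (2.65%, 0.907 to 7.52%), all in Axin2, and in shorter regions 70 of 3453 (2.03%, 1.61 to 2.55%). The 36 members without a TSS had 0 of 40 (up to 8.76%). A C59 summit was listed in 3 of 178 members (1.69%), where the share over all regions was 0.271%, and in 1 of 176 without the repeat regions (0.568%, 0.100 to 3.15%). A summit that is not listed may still hold signal below the threshold of the peak caller.

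**Figure D3:**
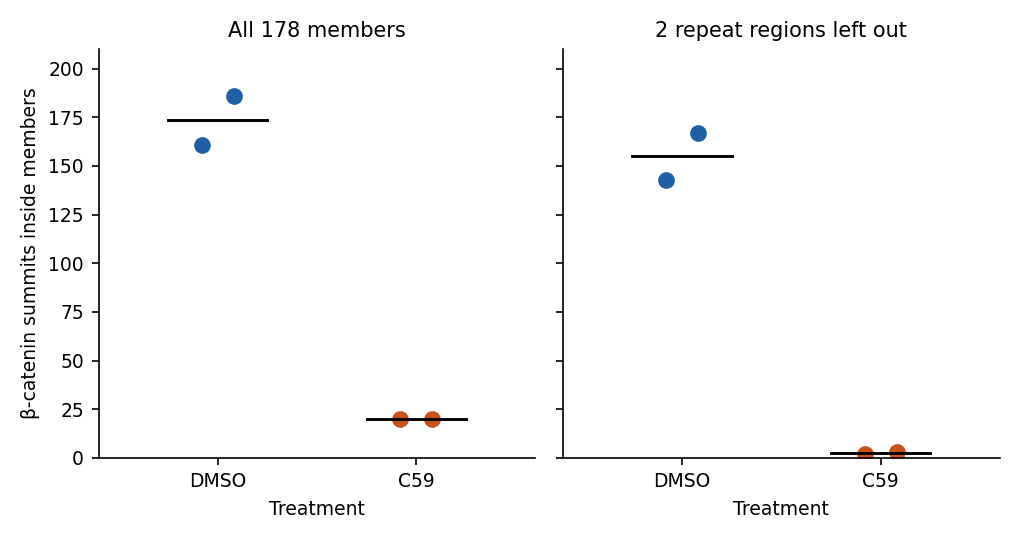
β-catenin summits inside the broad regions in each library (points), with the mean of the 2 replicates of a treatment (bars), for all members and without the 2 repeat regions. DMSO libraries hold 161 and 186 summits, C59 libraries 20 and 20, of which 2 and 3 lie outside the repeat regions.

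Axin2 was thus the only member outside the repeat regions with a C59 consensus summit. The list held 2 summits there, with fold enrichments of 5.59 and 4.78, and each C59 replicate had 2. A single further summit, in Arrdc3, was called in C59 replicate 2 alone.

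H3K27ac was still called on every broad region after C59. All 178 overlapped a region of the C59 consensus list (100%, 97.9 to 100%), where the share over all regions was 87.1%, and all had at least 50% of their bases covered, where that share was 85.9%. Overlap rose with length and was 99.6% from 1500 bp up to the limit. The longest overlapping C59 region reached 2000 bp for 125 members (70.2%, 63.1 to 76.5%), and the share over all regions was 0.997%. The median ratio of C59 to DMSO length was 0.981, with quartiles of 0.925 and 1.01. There were 55 members longer in C59, 122 shorter and 1 of the same length. Members were chosen as long in DMSO, so they can be expected to be shorter elsewhere. With the lists exchanged, the 171 regions chosen in C59 had 125 of 2000 bp or more in DMSO (73.1%, 66.0 to 79.2%), and a median ratio of DMSO to C59 length of 0.993. Each list thus found its own long regions slightly shorter in the other. Of the 96 regions chosen in DMSO replicate 1, 72 reached 2000 bp in DMSO replicate 2, 73 in C59 replicate 1 and 65 in C59 replicate 2. Between replicates of 1 treatment, the median ratio was 0.995 and 0.990 in DMSO and 0.980 and 1.00 in C59, depending on which of the replicates chose the regions. The length in a list is that of the longest region called over the member, and 15 members were split into 2 or more regions in C59. The C59 regions together covered a median of 97.7% of a member.

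**Figure D4:**
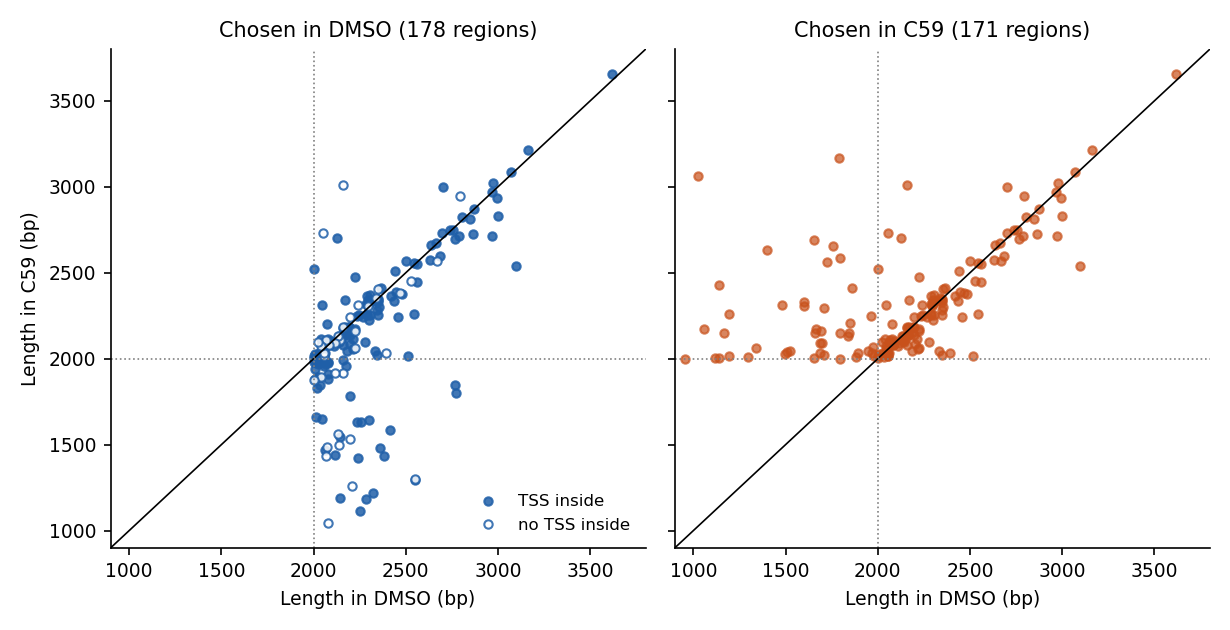
Length in DMSO (horizontal, bp) against length in C59 (vertical, bp) of the longest overlapping region, for the 178 regions chosen in DMSO (left, filled where a TSS lies inside) and the 171 chosen in C59 (right). The line marks equal length and the dotted lines 2000 bp, and points under the line on the left are mirrored by points left of it on the right.

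The ratio of lengths in members with and without β-catenin differed by less than their quartiles spread. Outside the repeat regions, the 84 members with a wild-type β-catenin summit had a median ratio of 0.980 (quartiles 0.918 and 1.00), and the 92 without had 0.981 (0.934 and 1.01). A C59 region of 2000 bp or more remained for 67.9% of the first (57.3 to 76.9%) and 71.7% of the second (61.8 to 79.9%). The 36 members without a TSS had a median ratio of 0.978 and the 140 with one 0.981.

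Over the replicate lists, the longest region was shorter in both C59 libraries than in both DMSO libraries for 48 members (26.97%) and longer for 28 (15.7%). The shares over all regions present in all 4 lists were 22.7% and 15.5%, so the members lay near the background in both directions. In regions from 1500 bp up to the limit it was shorter for 310 and longer for 106 of 964. The highest fold enrichment in a member was higher in both C59 libraries for 67 members (37.6%) and lower for 21 (11.8%), while the shares over all regions were 20.8% and 19.4%. It was 29.7% and 16.1% from 1500 bp up to the limit. The median ratio of the highest fold enrichment, C59 over DMSO in the consensus lists, was 1.03 in broad and 1.00 in shorter regions. The DMSO libraries compared here also chose the members, and the H3K27ac libraries of C59 were the deeper ones.

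Single members differed more. By the mean of the replicates, the highest fold enrichment stood highest over DMSO in Axin2, with 10.52 and 10.6 in DMSO and 16.7 and 15.5 in C59, a ratio of 1.52. The groups did not overlap, and the Axin2 region was shorter in C59, with 1975 and 2013 bp in DMSO and 1766 and 1216 bp in C59, where all pieces covered 1745 and 1532 bp. Tshz3, a zinc finger factor, followed with 5.29 and 5.32 against 8.09 and 6.88 (1.41), and Ptch1 with 3.34 and 4.13 against 5.10 and 4.83 (1.33). In Lef1, named for its place in the WNT list, the values were 6.42 and 7.59 against 8.81 and 8.62 (1.24). Of the members with a lower fold enrichment in C59, Meis2 had the lowest ratio (0.821), with 2.97 and 3.22 in DMSO and 2.66 and 2.42 in C59. Axin2, Tshz3, Ptch1 and Meis2 were singled out by rank after their values were seen, and with 2 libraries against 2 no single member can reach a p below 0.33 in an exact permutation test.

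The lowest ratios of C59 to DMSO length in the consensus lists belonged to Sgpl1 (0.496), an intragenic region of Fhod3 (0.502), Slc38a1 (0.507), a region 105 bp from the Ier2 TSS (0.511) and Elf2 (0.519). All 5 were split into 2 regions in C59, so these ratios are those of the longer piece. In Sgpl1 alone, which encodes an enzyme that cleaves sphingosine phosphate, the replicates of the treatments separated, with 2231 and 2199 bp in DMSO and longest pieces of 861 and 910 bp in C59. All C59 pieces together covered 1599 and 1540 bp of the Sgpl1 member, against 2231 and 2199 bp in DMSO. Its highest fold enrichment was 9.69 and 10.53 in DMSO and 13.5 and 10.8 in C59. That value belongs to 1 summit and does not describe the signal where the call was split. Slc38a1, a glutamine transporter, measured 1304 and 1283 bp in DMSO and 1264 and 1288 bp in C59, while the pieces together covered 2044 and 2101 bp against 2025 and 2024 bp. The Ier2 region had 1246 and 1326 bp against 1284 and 1253 bp, and Elf2, an ETS factor, 798 and 1261 bp against 1248 and 1057 bp. Fhod3, an actin-binding formin, had 880 and 1929 bp in DMSO and 966 and 1014 bp in C59. In these 4, the longest pieces of the DMSO and C59 replicates overlapped in length.

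Of the members tied to signalling, Frzb was 1 region of 2273 and 2242 bp in the DMSO replicates and was split in those of C59, with longest pieces of 938 and 1202 bp. The pieces together covered 1850 and 1892 bp of the Frzb member. It held 2 β-catenin summits in each DMSO replicate and 0 in each of C59. Hoxa10 had longest pieces of 1300 and 1748 bp in DMSO and 1172 and 743 bp in C59, covered over 2414 and 2235 bp against 1990 and 1862 bp, without a β-catenin summit in any library. Sall3 had 1948 and 1928 bp against 1782 and 1778 bp, and Twist2 1911 and 1859 bp against 1796 and 1818 bp. These 4 did not overlap between treatments, as was so for 22.7% of all regions in this direction. Gas1 had 2012 and 2028 bp against 1890 and 1970 bp, also without overlap but close together. Ptch1, with 3055 and 3052 bp against 3080 and 1978 bp, Gli3, with 2181 and 2072 bp against 2082 and 2096 bp, and Lef1, with 2092 and 1469 bp against 1514 and 1478 bp, overlapped. Tcf7l2 was longer in C59, by little, with 2022 and 1992 bp against 2051 and 2042 bp. The region 120 bp from the Dusp4 TSS, a phosphatase that acts on MAP kinases, differed between kinds of list. It had 2161 bp in the DMSO and 3012 bp in the C59 consensus list, but 2118 and 2121 bp in the DMSO replicates and longest pieces of 607 and 1393 bp in those of C59, which covered 1697 and 1827 bp in all.

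**Figure D5:**
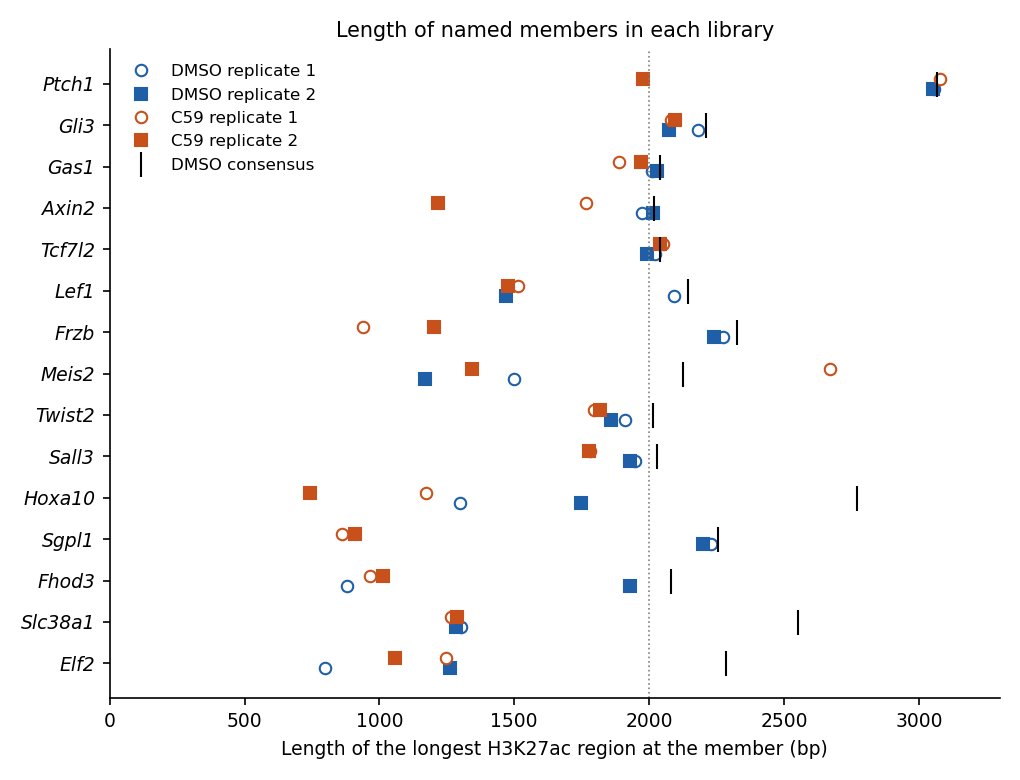
Length of the longest H3K27ac region (bp) at 15 named members in each library, with DMSO in blue, C59 in orange, replicate 1 as open circles, replicate 2 as filled squares and the DMSO consensus length as a black tick. The longest pieces of Sgpl1 and Frzb lie apart between treatments. Their calls were split in C59, and all pieces together also covered fewer bases there. The longest pieces of Slc38a1 and Elf2 are short in all 4 libraries.

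Of the 6 members at Hist1 genes, 4 had a longest region that was longer in both C59 libraries and 0 had a shorter one, where the shares over all regions were 15.5% and 22.7%. That of Hist1h2ac with Hist1h2bc had 1619 and 1634 bp in DMSO and 2548 and 2648 bp in C59, but the DMSO calls were split and together covered 2321 and 2488 bp, against 2548 and 2647 bp. That of Hist1h2ah with Hist1h2bk had 986 and 982 bp against 1944 and 1792 bp, covered over 1592 and 1747 bp against 1944 and 1792 bp. The longest piece thus overstates the difference in both. Hist1h3e had 934 and 1258 bp against 1435 and 1885 bp, and its covered bases overlapped, with 1408 and 1753 bp against 1435 and 1883 bp. Hist1h1c, a linker histone gene, had 2188 and 2224 bp against 2229 and 2225 bp, so that the nearest values almost touched. Hist1h2ag with Hist1h4i had 2295 and 2357 bp against 2326 and 1329 bp, and Hist1h2ai with Hist1h2bl and Hist1h3h had 1853 and 2792 bp against 2682 and 2727 bp, both with overlap. The highest fold enrichment of Hist1h2ah with Hist1h2bk was 9.96 and 10.7 in DMSO and 9.84 and 9.17 in C59. This group was singled out after its values were seen, and 1 of the 6 held a β-catenin consensus summit.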

How the data were processed

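Peak lists of H3K27ac and β-catenin ChIP-seq were used from 8 libraries, together with 4 consensus lists. Per the labels and methods, the authors used cutadapt for trimming and Bowtie2 2.4.5 for mapping to mm10, removed alignments of low mapping quality and called peaks with MACS2 2.2.7.1 without input. For consensus lists, the authors removed duplicates, sampled the replicates to the smaller one, called both together and kept summits found in peaks of both. The deposited columns hold region bounds, the fold enrichment of each summit over the expected coverage, and its −log10 p and −log10 q. As deposited, these lists contain only what passed the q threshold, so fold enrichments across libraries are not scaled to each other. The 4 input samples were not used here.

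Each unique region counted once on chromosomes 1 to 19 and X. TSSs came from GENCODE M21, sequence from RefSeq GRCm38. Coordinates are 1-based. Regions were named for the coding gene whose TSS they hold, otherwise for a noncoding gene whose TSS they hold. The rest were named for a coding gene they overlap or for the nearest coding TSS. Named were the 10 longest members, the 5 with most β-catenin, with the strongest C59 β-catenin or with the lowest length ratio, those nearest the limit, and the gene lists. Not every list result is reported here. The highest summit folds, Frzb, the neighbours and Hist1 were chosen after their values were seen. The members and lists were chosen with earlier results of these data known. The depth of a library was computed from fold and −log10 p. Python 3.11.15, pandas 2.3.3, scipy 1.17.1 and pysam 0.24.0 were used, and the scripts were tested on simulated data.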

Additional observations from a re-analysis of the deposited data

How the results depend on the processing

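Of 88 alternatives over all results, 51 counted as the same, 34 as moved and 3 turned the direction of the length ratio. Shares were judged by their interval and ratios by the spread between replicates. The number of members was judged by a fixed fold limit, and the difference in β-catenin summits by its sign alone. With summits of 5-fold or more this difference was 61.5 and still counted as the same. With a limit of 1500 bp there were 1144 members, 39.5% held β-catenin, and 4.60% of their summits lay in a C59 peak. With 3000 bp there were 4, of which 100% held a TSS and 100% β-catenin. Their density ratio was 4.27, with 75% of summits in a C59 peak, 8.33% with a core and a length ratio of 1.01. The repeat region Gm26917 was 1 of these 4 and held 9 of their 12 summits, all 9 inside a C59 peak. Joining regions at most 500 bp apart gave 377 members, a density ratio of 1.32, 8.71% of summits in a C59 peak and 76.9% of members still at 2000 bp. Counting TSSs within 1 kb gave 86.5%. Summits of 5-fold or more lay in 30.9% of members, with a density ratio of 1.24.

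Without the 2 repeat regions, which was tried after seeing the data, the density ratio was 1.31 and 2.65% of summits lay in a C59 peak. The latter share is low in part because C59 β-catenin peaks were used to set these regions apart. For regions without a TSS alone the density ratio was 1.599.

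Leaving out 1 replicate each gave 91 to 96 members, 84.6 to 86.5% with a TSS and 37.5 to 65.2% with β-catenin. The density ratio was 1.21 to 1.53, and 11.8 to 31.8% of summits lay in a C59 peak. The repeat regions were not left out in these settings. The share still at 2000 bp was 43.3 to 90.1%. The length ratio was 0.892 to 1.01 and turned above 1 without either H3K27ac replicate of DMSO (1.012 and 1.007), where lists of single replicates were set against the deeper consensus list of C59. With the replicate block (paired by number), the difference in β-catenin summits was again 153.5, and the smallest possible p was 0.5. The numbers do not stand for a shared litter in the labels. The other causes were not tested.

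The lists give no signal below the threshold, and the number of long regions differed between single and consensus lists, for which the cause was not tested. Of the members, 51 reached 2000 bp in none of the 4 single lists.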
